A study of Mus musculus with 24 samples.

Results

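The genes that carry a cell from G2 through mitosis were followed as a set of 57 in long-term haematopoietic stem cells (LT-HSCs). The set was chosen by gene symbol, and all 57 were found among the 38215 genes of the deposited table and passed the filter on low counts that left 15879 genes for testing. It holds 11 kinases, cyclins and other proteins of mitotic entry, 2 transcription factors, 9 genes of the spindle checkpoint and anaphase, and 4 of the chromosomal passenger complex. It also holds 7 genes of the centromere and kinetochore, 11 spindle motors and microtubule proteins, 6 of the central spindle and cytokinesis, and 7 of condensin and chromosome structure.

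Polyadenylated RNA was sequenced from LT-HSCs of 12 chimaeric mice in 24 libraries, 6 in each of 4 groups. The groups were Jak2V617F cells under pegylated interferon alpha (pegIFN), Jak2V617F cells under vehicle, WT cells under pegIFN and WT cells under vehicle. Jak2V617F is an activating mutation of a cytokine receptor kinase and a driver of myeloproliferative neoplasms. The Jak2V617F donor was C57Bl/6N with Jak2V617F/+ and Tg(E2A-cre) and carried CD45.2, and E2A-cre is a Cre transgene that the labels name without the cells in which it acts. The WT donor was C57Bl/6N Ptprca and carried CD45.1. The hosts were C57BL/6J mice that carried both CD45 alleles (Ptprca/b) and were irradiated with 11 Gray, and each received 2000000 marrow cells with the donors mixed in equal parts. Every library therefore comes from transplanted cells, and none from an unirradiated animal. PegIFN was injected weekly at 600 ng, in 5 doses over 4 weeks, against PBS with bovine serum albumin as vehicle, and marrow was taken 48 hours after the last dose. Lineage-negative Sca1+ cKit+ CD150+ CD48- cells were sorted by CD45 allele, so both genotypes came from the same mouse, as far as the mouse numbers in the library names show. The age of the mice and the number of donors are not given in the sources used here, and gene counts do not show the point mutation.

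Mitosis is set off by the kinase Cdk1 with cyclin B. In G2 the factors Foxm1 and B-Myb (Mybl2) switch on the mitotic genes, whose promoters are held silent in resting cells by the DREAM complex at sites known as CHR elements. Kinetochores then tie chromosomes to the spindle, the checkpoint holds back the anaphase-promoting complex (APC/C) until all are attached, and the central spindle guides the final cleavage. LT-HSCs are known as largely quiescent, and these transcripts are typical of cycling cells.

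The promoters are shown first, and whether their motifs go with how the genes moved was not tested. RefSeq gave a promoter of 300 bases, from 250 before to 50 after the gene start, for 47 of the 57 genes (GRCm38.p6). The 8 below are cut to 150 bases, 120 before and 30 after the start, in the direction of transcription. The first 5 (Cdk1, Ccnb1, Plk1, Ube2c and Cenpa) belong to genes that were higher with pegIFN in WT cells and higher in Jak2V617F cells under vehicle. Gtse1 was higher with pegIFN in both genotypes, and Nusap1 and Kif23 were lower with pegIFN in Jak2V617F cells. Capitals mark matches, on either strand, to the CHR-type motifs TTTGAA and TTTAAA and to the CCAAT box, and no capitals mean that none of these letters is in the stretch.
Cdk1, chr10:69352883-69353032, minus strand: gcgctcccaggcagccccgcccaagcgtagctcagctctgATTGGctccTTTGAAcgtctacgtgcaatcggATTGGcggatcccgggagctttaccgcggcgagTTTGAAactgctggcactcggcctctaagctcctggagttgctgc
Ccnb1, chr13:100786457-100786606, minus strand: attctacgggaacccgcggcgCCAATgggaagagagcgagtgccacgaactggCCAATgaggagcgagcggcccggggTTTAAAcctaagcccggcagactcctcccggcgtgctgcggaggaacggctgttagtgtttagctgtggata
Plk1, chr7:122159315-122159464, plus strand: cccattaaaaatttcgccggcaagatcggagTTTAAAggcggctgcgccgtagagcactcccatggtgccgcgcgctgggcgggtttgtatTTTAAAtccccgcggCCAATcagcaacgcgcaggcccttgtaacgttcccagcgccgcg
Ube2c, chr2:164769809-164769958, plus strand: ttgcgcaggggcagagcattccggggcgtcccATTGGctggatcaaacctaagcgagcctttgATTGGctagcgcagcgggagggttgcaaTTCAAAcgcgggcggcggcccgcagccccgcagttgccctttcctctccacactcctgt
Cenpa, chr5:30666766-30666915, plus strand: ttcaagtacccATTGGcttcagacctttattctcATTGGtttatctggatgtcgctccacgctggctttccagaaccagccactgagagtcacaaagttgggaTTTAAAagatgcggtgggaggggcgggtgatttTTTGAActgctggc
Nusap1, chr2:119618178-119618327, plus strand: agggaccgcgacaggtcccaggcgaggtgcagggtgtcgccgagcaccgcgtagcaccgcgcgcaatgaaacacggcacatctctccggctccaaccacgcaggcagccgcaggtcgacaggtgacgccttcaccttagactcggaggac
Gtse1, chr15:85859587-85859736, plus strand: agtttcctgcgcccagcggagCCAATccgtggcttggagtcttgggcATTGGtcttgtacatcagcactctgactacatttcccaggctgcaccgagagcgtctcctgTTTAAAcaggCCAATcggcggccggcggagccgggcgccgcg
Kif23, chr9:61946770-61946919, minus strand: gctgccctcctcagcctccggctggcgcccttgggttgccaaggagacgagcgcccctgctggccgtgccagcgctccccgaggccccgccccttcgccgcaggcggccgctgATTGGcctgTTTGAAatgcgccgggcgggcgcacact
Of the 47 promoters of 300 bases, 33 held TTTGAA on either strand (70.2%), against 18.1% of 27025 promoters of all genes. TTTAAA was in 10 (21.3%), against 13.2%, and CCAAT in 35 (74.5%), against 37.9%. A motif of each kind, CHR-type and CCAAT, was in 32 of them (68.1%), against 10.9% of all promoters. Overlapping matches were each counted. Of 75 promoters of other mitotic genes, 30 held TTTGAA (40%) and 43 CCAAT (57.3%), and of 30 promoters of S phase genes 3 held TTTGAA (10%) and 19 CCAAT (63.3%). No such motif was found for Mad2l1, Melk, Mybl2, Ncaph, Nuf2, Nusap1 and Pttg1. The RefSeq start lay 0 to 109 bases from the deposited gene start for the 8 genes printed, and a match is a run of letters, not a shown binding site.

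Levels are CPM, that is counts divided by the library size and its TMM factor. A gene was called where its Benjamini-Hochberg adjusted p over all 15879 genes was under 0.05 in edgeR's quasi-likelihood test. Total counts ran from 24.6 to 39.7 M per library, and the least abundant of the 57, the phosphatase Cdc25c, had 9 ± 3.19 CPM in WT vehicle cells (SD, n = 6) and at least 150 counts in each library. Per kb of exon, the proliferation marker Mki67 led in WT vehicle cells at 69.4 ± 12.8 CPM per kb. The topoisomerase Top2a followed at 52.6 ± 13.3 and the condensin ATPase Smc4 at 51.8 ± 6.31. The spreads of these neighbours overlap, but they are spreads between the same 6 libraries, and the genes were not compared within each library. The RhoA activator Ect2 at 3.92 ± 0.977 and Cdc25c at 1.83 ± 0.649 CPM per kb were the lowest. On sex-linked genes a pair of libraries stood apart. Jak2V617F pegIFN replicate 1 had 653.9 CPM of Xist, where the other Jak2V617F libraries had 2.996 to 110.1, and WT vehicle replicate 4 had 599.8 CPM, where the other WT libraries had 1801 to 3310. In the library labelled WT vehicle replicate 4 the Y-linked genes also summed to 249.6 CPM, where other WT libraries had 2.166 to 75.66, so each comparison's count of called genes among the 57 is also given without this pair of libraries. Donor sex and genotype cannot be told apart, and of the 57 genes Kif4 lies on the X chromosome. In bulk RNA, more cycling cells and more of a transcript in each cannot be told apart.

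The sum of the 57 genes was lowest in WT vehicle cells and varied most there. It ran from 6431 to 7309 CPM in Jak2V617F pegIFN cells (median 6952) and from 5252 to 7843 in Jak2V617F vehicle cells (median 7359). It ran from 6158 to 6597 CPM in WT pegIFN cells (median 6328) and from 3455 to 6363 in WT vehicle cells (median 4613). Of the 6 WT vehicle libraries 4 lay below every library of the other groups, and the highest, replicate 3, lay among the WT pegIFN libraries. WT vehicle had the lowest group mean for 54 of the 57 genes. The exceptions were Pttg1, Nusap1 and Kif23.

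**Figure D1:**
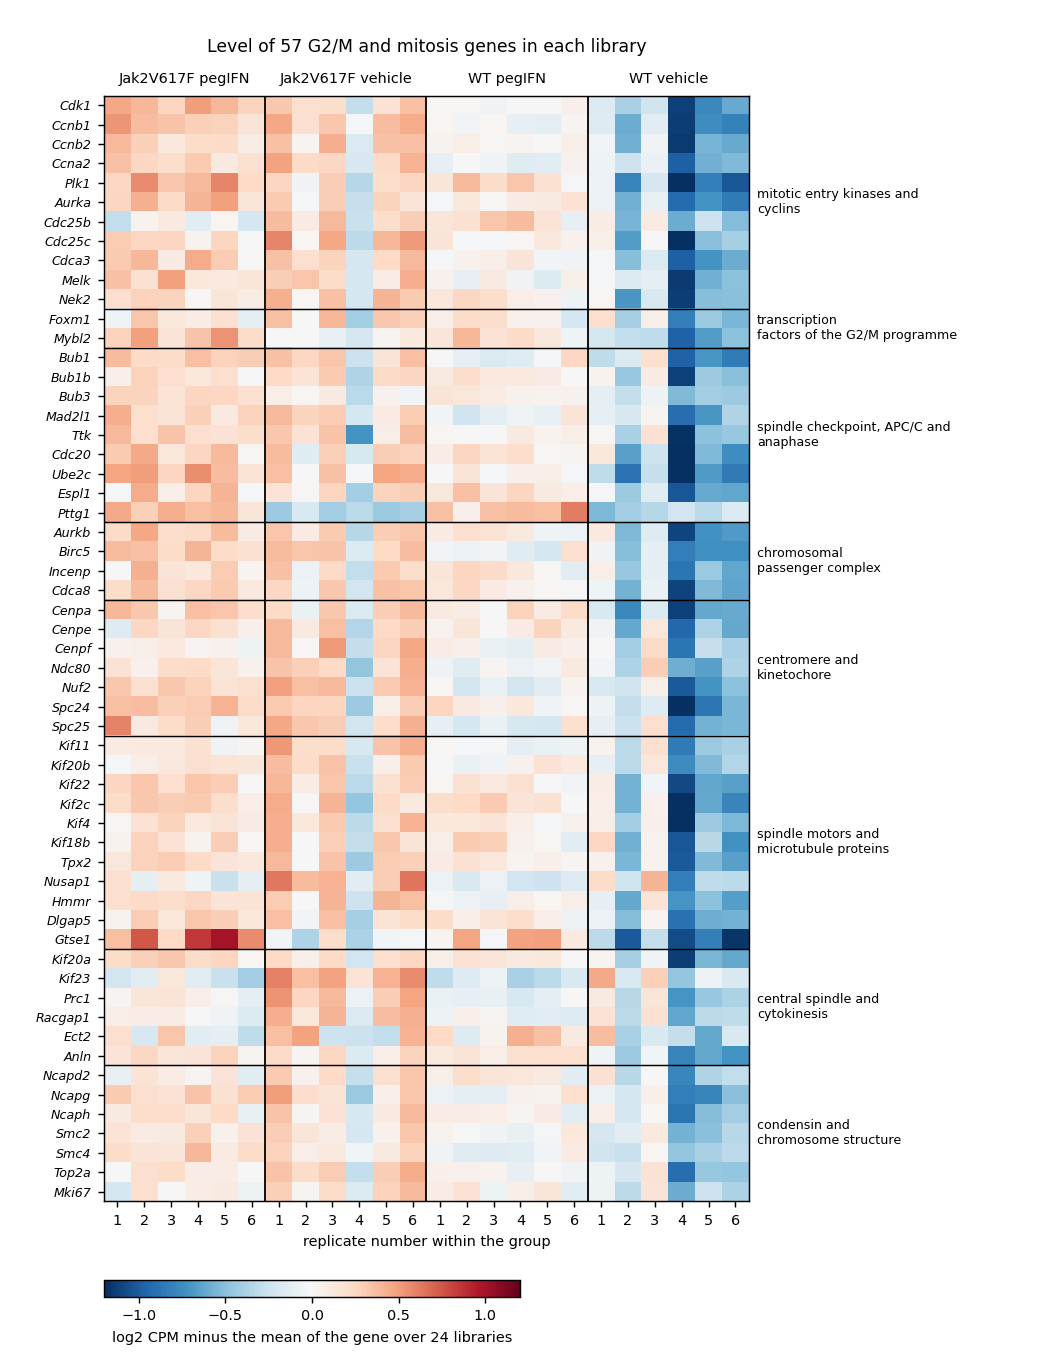
Level of each of the 57 genes (rows, grouped by role) in each of the 24 libraries (columns, by group and replicate number), as log2 CPM minus the mean of the gene over all libraries, with red above and blue below that mean. WT vehicle replicates 2, 4, 5 and 6 are blue in all 57 rows and deepest in replicate 4, replicates 1 and 3 are blue in 34 and 27 rows, and Pttg1, Gtse1 and Kif23 depart from the pattern of the other rows.

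The libraries of a group spread less under pegIFN than under vehicle. The median SD of the 57 genes on the log2 scale was 0.115 in Jak2V617F pegIFN and 0.248 in Jak2V617F vehicle libraries, and 0.096 in WT pegIFN and 0.375 in WT vehicle libraries. Over all genes tested these medians were 0.185, 0.178, 0.162 and 0.209 in the same order of groups. The SD was wider under vehicle for 53 of 57 genes in Jak2V617F cells (46.5% of all genes) and for 56 of 57 in WT cells (65.7% of all genes). Without the pair of libraries apart on sex-linked genes these counts were 52 (51.1% of all genes) and 56 (60.5%). Vehicle mouse 44, the source of replicate 4, was lowest of its group for 55 genes in Jak2V617F cells and for 53 in WT cells. The Jak2V617F vehicle library of this mouse is in both counts of wider SD for Jak2V617F cells, 53 and 52. How far the wider vehicle spread in Jak2V617F cells rests on that 1 library was not tested. WT replicates 1 and 3, from vehicle mice 41 and 43, were the 2 highest of their group for 52 genes. The library names of WT vehicle mice 41, 42 and 43 end in S4, S5 and S6, and so do those of mice 44, 61 and 63. The sums were 6071, 4772 and 6363 CPM in the former and 3455, 4453 and 4400 in the latter. The labels do not say what S means or whether libraries were made in separate sets, so such sets and the mice cannot be told apart.

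The first comparison asks what repeated interferon did to these genes in normal stem cells. PegIFN raised most of them in WT LT-HSCs. Of 57 genes, 44 were called higher and none lower, where 28.2% of all genes tested were called higher and 28.7% lower. The median log2 fold change was 0.444, against -0.014 over all genes. No gene was lower at an unadjusted p under 0.05 either, and DESeq2 and limma-voom called none lower. The 6 libraries of each group did not overlap for 15 of the 57 genes, where 15.1% of all genes lay above without overlap. Without the pair apart on sex-linked genes the non-overlap counts of all 4 comparisons stayed as they are given here and below.

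Genes of mitotic entry rose in 11 of 11, and all 57 are protein-coding genes, with positions given on GRCm38. Plk1 (ENSMUSG00000030867, chr7:122159437-122169875), the kinase that drives mitotic entry and spindle assembly, had 72.3 to 96 CPM in WT pegIFN cells (median 84.4), against 29.4 to 69.5 in WT vehicle cells (median 41.6). All pegIFN libraries lay above all vehicle libraries, and the log2 fold change was 0.86 ± 0.16 (SE, adjusted p = 7.59e-05). Cdk1 (ENSMUSG00000019942, chr10:69336635-69352938), the central mitotic kinase, had 92.2 to 99 CPM (median 95.5), against 43.8 to 84.9 under vehicle (median 67.5), also without overlap (0.52 ± 0.12, adjusted p = 0.000523). Its partner cyclin B1 (Ccnb1) rose by 0.52 ± 0.12 (adjusted p = 0.000851), with 95.1 to 106 CPM against 47.2 to 94.1, so that the groups were apart by a narrow gap. Both transcription factors rose. Mybl2 (ENSMUSG00000017861, chr2:163054687-163084688) had 85.6 to 116 CPM in pegIFN cells (median 98.9), against 45.1 to 76.6 in vehicle cells (median 67.3), a log2 change of 0.64 ± 0.10 (adjusted p = 8e-06). Foxm1 had 74.5 to 101 CPM (median 90.5), against 48.9 to 99.6 (median 64.4), and here the groups overlapped (0.35 ± 0.15, adjusted p = 0.0438).

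Of the 9 checkpoint and anaphase genes, 7 rose, and Mad2l1 and Ttk were not called. Pttg1 (ENSMUSG00000020415, chr11:43420250-43426251, GRCm38) encodes securin, the inhibitor of the protease that frees sister chromatids. It had 17 to 25 CPM in WT pegIFN cells (median 20.9), against 11.2 to 14.5 in WT vehicle cells (median 12.9). The groups did not overlap, and its log2 change of 0.70 ± 0.08 had the smallest adjusted p of the set (2.38e-07). Ube2c, the ubiquitin-conjugating enzyme of the APC/C, had 66.2 to 75.6 CPM (median 69), against 29 to 55.5 (median 39.7), and rose by 0.71 ± 0.12 (adjusted p = 2.98e-05). Cdc20, which activates the APC/C, rose by 0.61 ± 0.15 (adjusted p = 0.00126), with 98.4 to 116 CPM against 42.3 to 107 and some overlap. The checkpoint protein Bub3 rose by 0.38 ± 0.07 (adjusted p = 7.39e-05), with 138 to 148 CPM against 92.8 to 128 and none.

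All 4 genes of the chromosomal passenger complex, which corrects wrong attachments, rose, with a median of 0.513. Cdca8 (borealin) had 87.5 to 105 CPM in WT pegIFN cells (median 93), against 40.9 to 85.2 in WT vehicle cells (median 60.4), a change of 0.54 ± 0.13 (adjusted p = 0.000874). Its kinase Aurkb rose by 0.54 ± 0.14 (adjusted p = 0.00298) and survivin (Birc5) by 0.42 ± 0.12 (adjusted p = 0.00368), both with overlap between the groups. At the kinetochore 3 of 7 rose, namely the centromeric histone Cenpa, the motor Cenpe and Spc24 of the Ndc80 complex, which binds microtubules. Cenpa had 82.1 to 99.1 CPM under pegIFN (median 88.1), against 37.6 to 73 under vehicle (median 53.5), with no overlap (0.68 ± 0.12, adjusted p = 6.22e-05). The other genes of that complex, Ndc80, Nuf2 and Spc25, had log2 values of 0.23 to 0.29 and were not called, nor was Cenpf (0.27 ± 0.13, adjusted p = 0.0901).

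Spindle motors and microtubule proteins rose in 9 of 11. Gtse1 (ENSMUSG00000022385, chr15:85859707-85876572), a microtubule-binding protein that also restrains p53 in G2, had 37.1 to 53.3 CPM in WT pegIFN cells (median 46.7), against 16.7 to 31 in WT vehicle cells (median 20). It had the largest fold change of the 57 genes, 2.02-fold (log2 1.02 ± 0.16, adjusted p = 1.33e-05), without overlap. The mitotic kinesin Kif11 (0.21 ± 0.12, adjusted p = 0.144) and the microtubule bundler Nusap1 (-0.04 ± 0.15, adjusted p = 0.855) were not called. In the group of central spindle and cytokinesis 2 of 6 rose, Kif20a and Anln (anillin, the scaffold of the contractile ring, 0.56 ± 0.11, adjusted p = 7.99e-05). Kif23 (ENSMUSG00000032254, chr9:61917280-61946799), the motor of centralspindlin, was at -0.24 ± 0.12 (adjusted p = 0.0841). Condensin and chromosome genes rose in 6 of 7 by small amounts, from 0.20 for Smc4 to 0.35 for Ncapg, and Top2a missed the threshold (0.29 ± 0.12, adjusted p = 0.0545). None of the 7 genes of this role was called without the pair of libraries apart on sex-linked genes, where their median was 0.208. Mki67 had 739 to 920 CPM under pegIFN (median 861), against 538 to 908 under vehicle (median 670), and rose by 0.27 ± 0.10 (adjusted p = 0.026) with wide overlap.

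This result moved with the vehicle mice. Without WT vehicle replicate 4 there were 35 genes higher and 1 lower (Kif23) with a median of 0.343, and without both libraries apart on sex-linked genes 32 were higher and 1 lower (median 0.342), where 26.5% of all genes were called higher and 26.7% lower. By role, these 32 were 8 of 11 genes of mitotic entry, 1 of 2 transcription factors, 6 of 9 checkpoint and anaphase genes and 4 of 4 passenger complex genes. The rest were 3 of 7 kinetochore genes, 8 of 11 spindle genes and 2 of 6 genes of the central spindle. Without the libraries of vehicle mice 41 and 43, chosen after seeing the data, there were 55 higher with a median of 0.671. The shares of all genes in this fit and in that without replicate 4 alone are not given here. With upper-quartile scaling 33 genes were higher and 1 lower, where 22% of all genes were called higher and 34% lower.

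**Figure D2:**
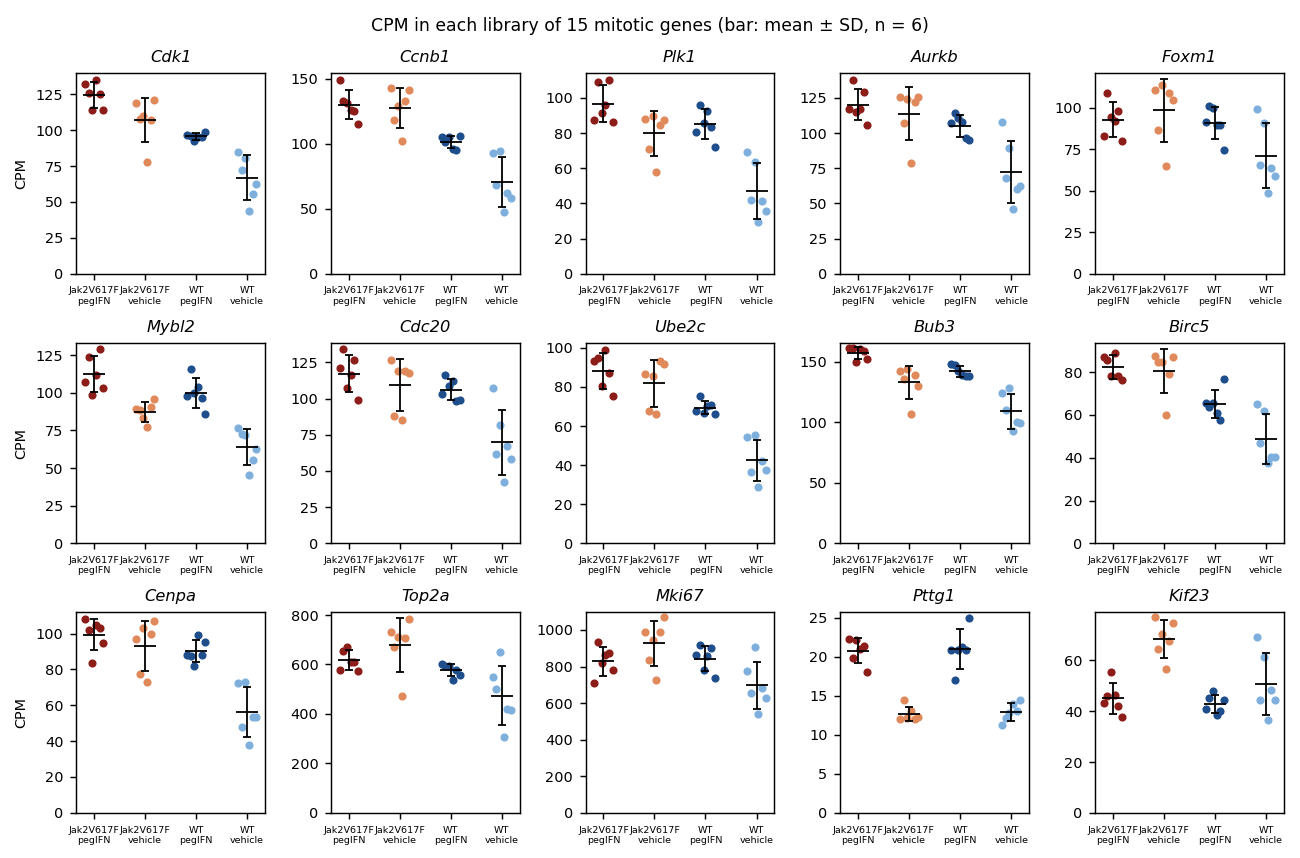
CPM (vertical axis, from 0) of 15 of the genes in each library, by group, with points for the 6 libraries and bars for the mean ± SD. WT vehicle is the lowest group for all panels but Pttg1 and Kif23, and Pttg1 stands at 18 CPM or more in Jak2V617F pegIFN cells and 17 or more in WT pegIFN cells, against 14.5 or less in both vehicle groups.

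In Jak2V617F cells the same treatment was followed by few calls among these genes. PegIFN raised 4 of the 57 genes (Mybl2, Bub3, Pttg1 and Gtse1) and lowered 2 (Nusap1 and Kif23), where 21.7% of all genes tested were called higher and 22.3% lower. The median log2 fold change was 0.029, against -0.01 over all genes, and its sign turned with upper-quartile scaling (-0.025). The same 4 were the genes whose pegIFN libraries lay above all vehicle libraries, and 9.81% of all genes did so. Kif23 was the one gene below without overlap, as were 8.58% of all genes.

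Pttg1 had 18 to 22.3 CPM in Jak2V617F pegIFN cells (median 21.2), against 12 to 14.4 in Jak2V617F vehicle cells (median 12.3). The change of 0.72 ± 0.08 (adjusted p = 5.25e-07) stood beside 0.70 in WT cells, and the difference between these changes was 0.02 ± 0.12 (adjusted p = 0.97). Gtse1 had 44.6 to 75.5 CPM (median 59.7), against 29 to 43.6 (median 36.9), a change of 0.74 ± 0.16 (adjusted p = 0.000698). Mybl2 had 98.7 to 129 CPM (median 110), against 77.1 to 96.1 (median 88.7), and rose by 0.36 ± 0.10 (adjusted p = 0.00482). Bub3 rose by 0.24 ± 0.07 (adjusted p = 0.00822), with 150 to 161 CPM against 107 to 144. In each of these genes every pegIFN library was above every vehicle library.

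Kif23 had 37.6 to 55.5 CPM in Jak2V617F pegIFN cells (median 44.6), against 56.5 to 76.9 in Jak2V617F vehicle cells (median 68.9). It fell by 0.60 on the log2 scale (SE 0.12, adjusted p = 0.000269), and no library overlapped. Nusap1 had 63 to 87.6 CPM (median 72.1), against 69.8 to 119 (median 100), and fell by 0.42 (SE 0.15, adjusted p = 0.0239) with overlap at the low vehicle library of mouse 44. Nusap1 was not called without pegIFN replicate 5 or without vehicle replicate 1 or 6, while Kif23 was called in each of these fits. The other centralspindlin subunit Racgap1 was at -0.27 ± 0.11 (adjusted p = 0.0522) and the bundler Prc1 at -0.27 ± 0.11 (adjusted p = 0.052). Both were called lower, besides Nusap1 and Kif23, with DESeq2, with RLE scaling and with limma-voom, fits in which 20.1%, 22.7% and 21.5% of all genes were lower. Without the pair apart on sex-linked genes 4 genes were higher and 4 lower (median 0.01), where 20.9% of all genes were higher and 21.4% lower. Without the libraries of mouse 44, a choice made after seeing the data, there were 8 genes lower (Cdc25b, Cenpf, Kif11, Nusap1, Kif23, Prc1, Racgap1 and Top2a), where 20.6% of all genes were called lower. With upper-quartile scaling there were 5, where 16.9% of all genes were called higher and 26.6% lower.

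Cdk1, cyclin B1 and most other genes of mitotic entry and exit were not called in Jak2V617F cells. Cdk1 had 114 to 135 CPM under pegIFN (median 125), against 78 to 121 under vehicle (median 109), at 0.21 ± 0.12 (adjusted p = 0.143). Ccnb1 had 115 to 149 CPM (median 128), against 102 to 143 (median 131), at 0.03 ± 0.12 (adjusted p = 0.874). For Ube2c the values were 75.2 to 99.1 CPM (median 90.2), against 66.1 to 93.2 (median 86.1), at 0.11 ± 0.12 (adjusted p = 0.485). The groups overlapped widely for each. Cdc25b, a phosphatase that activates Cdk1, had 44.4 to 58.6 CPM (median 52.7), against 45.2 to 71.4 (median 65), at -0.27 ± 0.13 (adjusted p = 0.0835). Aurkb was at 0.08 ± 0.14, Foxm1 at -0.08 ± 0.15, Top2a at -0.14 ± 0.12 and Mki67 at -0.16 ± 0.10 on the log2 scale, none of them called.

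The next comparison sets the genotypes side by side without interferon, in cells of the same mice. Under vehicle, 54 of the 57 genes were called higher in Jak2V617F than in WT LT-HSCs and none lower, where 8.48% of all genes tested were called higher and 4.23% lower. The median log2 fold change was 0.555, against -0.005 over all genes. No gene was lower at an unadjusted p under 0.05, by DESeq2 or by limma-voom. The genes not called were Pttg1, Ttk and Ect2. The comparison shares the WT vehicle libraries with that of pegIFN in WT cells, so both move with the level of those 6 libraries.

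Ube2c led the set. It had 66.1 to 93.2 CPM in Jak2V617F vehicle cells (median 86.1), against 29 to 55.5 in WT vehicle cells (median 39.7), a 1.93-fold difference (log2 0.95 ± 0.12, adjusted p = 0.000117). Ccnb1 had 102 to 143 CPM (median 131), against 47.2 to 94.1 (median 65.1), at 0.86 ± 0.12 (adjusted p = 0.000383). For these genes, and for Mybl2 and Cenpa, every Jak2V617F library lay above every WT library, which holds for 4 of the 57 genes and for 1.76% of all genes (1.15% lay below). Mybl2 had 77.1 to 96.1 CPM against 45.1 to 76.6 (0.45 ± 0.10, adjusted p = 0.0065), and Cenpa had 73.2 to 107 against 37.6 to 73 (0.72 ± 0.12, adjusted p = 0.0019).

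All 11 genes of mitotic entry were higher, with a median of 0.688, among them Plk1 (0.77 ± 0.16, adjusted p = 0.00431) and Cdk1 (0.69 ± 0.12, adjusted p = 0.0017). In the chromosomal passenger complex Birc5 had 59.9 to 87.5 CPM (median 84.7), against 37.7 to 65 (median 43.7), at 0.73 ± 0.12 (adjusted p = 0.00116). The groups overlapped only through the low Jak2V617F library of mouse 44. All 7 kinetochore genes and all 11 spindle genes were higher, from 0.44 for Ndc80 to 0.72 for Cenpa and from 0.48 for Kif20b to 0.65 for Gtse1. The hyaluronan receptor and spindle protein Hmmr was at 0.59 ± 0.12 (adjusted p = 0.00421) and Prc1 at 0.56 ± 0.11 (adjusted p = 0.00343). Condensin and chromosome genes were higher in 7 of 7, with the lowest median of the 8 role groups, 0.408. Smc4 had 317 to 393 CPM in Jak2V617F cells (median 351), against 235 to 330 in WT cells (median 265), at 0.41 ± 0.07 (adjusted p = 0.00225). Top2a was at 0.52 ± 0.13 and Mki67 at 0.41 ± 0.10, both called and both with overlap.

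Within each vehicle mouse the Jak2V617F cells had the larger sum of the 57 genes. The ratio of Jak2V617F to WT was 1.29, 1.39, 1.17, 1.52, 1.63 and 1.78 in mice 41, 42, 43, 44, 61 and 63. Between 53 and 57 genes were higher in Jak2V617F cells in each mouse, and 53 genes were higher in 6 of 6 mice. The shares of all genes that were so are not given here. The median log2 difference within a mouse was 0.281 to 0.904 over the 57 genes, against -0.015 to 0.014 over all genes. Mouse 44 had the lowest sums of both genotypes and still a ratio of 1.52. With the mouse as a block 55 genes were called higher, where 17.5% of all genes were, and Ttk joined them. In a fit of the vehicle libraries alone 22 were called, where 4.68% of all genes were called higher. Without both libraries apart on sex-linked genes 44 were called, with a median of 0.462, where 4.4% of all genes were called higher. By role, these 44 were 10 of 11 genes of mitotic entry, 1 of 2 transcription factors, 7 of 9 checkpoint and anaphase genes and 4 of 4 passenger complex genes. The rest were 5 of 7 kinetochore genes, 8 of 11 spindle genes, 4 of 6 genes of the central spindle and 5 of 7 condensin and chromosome genes.

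**Figure D3:**
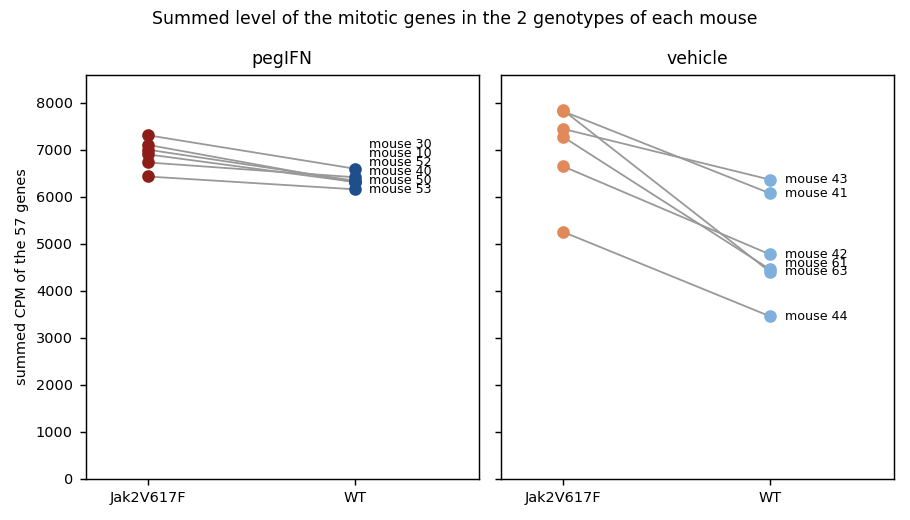
Summed CPM of the 57 genes (vertical axis, from 0) in the Jak2V617F and WT libraries of each mouse, joined by a line, with the pegIFN mice on the left and the vehicle mice on the right. The lines fall from Jak2V617F to WT in all 12 mice, steeply under vehicle and slightly under pegIFN, where all libraries lie between 6158 and 7309 CPM.

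Under pegIFN the genotypes lay closer. Of 57 genes, 2 were called higher in Jak2V617F cells (Cdk1 and Smc4) and none lower, where 4.16% of all genes tested were called higher and 4.43% lower (8.59% in either direction). At an unadjusted p under 0.05 there were 12 (21.1%, against 24.2% of all genes), of which 1 (Cdc25b) was lower. DESeq2 called 4 higher, where it called 5.56% of all genes higher, and limma-voom called 14 higher and 1 lower, where 13.2% of all genes were higher and 11.1% lower. In a fit of the pegIFN libraries alone 14 further genes were called higher, and the share of all genes in that fit is not given here. The main fit shares 1 estimate of the spread over the 4 groups, so its counts under vehicle and under pegIFN both depend on that estimate. Without the pair apart on sex-linked genes 2 were higher and none lower (median 0.132), where 1.49% of all genes were higher and 2.6% lower. The median log2 fold change was 0.143, against 0.015 over all genes. Cdk1 had 114 to 135 CPM in Jak2V617F pegIFN cells (median 125), against 92.2 to 99 in WT pegIFN cells (median 95.5), at 0.38 ± 0.12 (adjusted p = 0.0428). Smc4 had 347 to 429 CPM (median 370), against 291 to 347 (median 305), at 0.28 ± 0.07 (adjusted p = 0.0198). Leaving out Jak2V617F replicate 1, 2, 4, 5 or 6, or any of WT replicates 1 to 5, ended the call of Cdk1, and without Jak2V617F replicate 4 neither gene was called. Libraries did not overlap for 9 genes, all higher in Jak2V617F cells (Cdk1, Ccnb1, Ccnb2, Ccna2, Melk, Bub3, Ttk, Nuf2 and Hmmr), where 1.65% of all genes lay above and 1.81% below without overlap.

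The small differences had the same sign in most mice. The ratio of summed levels, Jak2V617F to WT, ran from 1.04 in mouse 53 to 1.13 in mouse 50, and 26 genes were higher in Jak2V617F cells in 6 of 6 mice. With the mouse as a block 18 genes were called higher and 1 lower, where 13.3% of all genes were called higher and 11.3% lower. Among them were Cdk1 (0.38 ± 0.06, adjusted p = 0.000534), Mad2l1 (0.31 ± 0.06, adjusted p = 0.00158), Nuf2 (0.34 ± 0.07, adjusted p = 0.00191) and Gtse1 (0.36 ± 0.08, adjusted p = 0.00218). Cdc25b was the one lower, at -0.26 ± 0.07 (adjusted p = 0.0115), and it was lower in 6 of 6 mice. The count of 18 fell to 10 without pegIFN mouse 30 and to 11 without mouse 10, 40 or 50. The shares of all genes called in these fits are not given here, so the lower counts cannot be set against them.

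**Figure D4:**
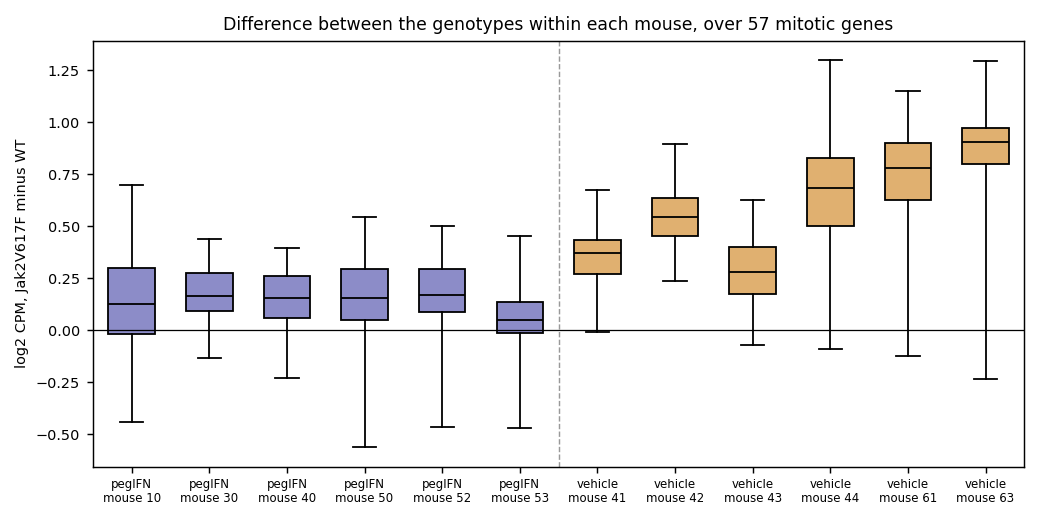
Log2 CPM of the Jak2V617F minus the WT library (vertical axis) over the 57 genes within each mouse, with the box from the lower to the upper quartile, the line at the median and whiskers to the lowest and highest gene. Medians run from 0.049 to 0.168 in the 6 pegIFN mice and from 0.281 to 0.904 in the 6 vehicle mice.

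Whether pegIFN acted differently in the genotypes was tested as an interaction, the change in Jak2V617F minus the change in WT cells. In the fit without a block edgeR called none of the 57 genes and 0% of all genes. At an unadjusted p under 0.05 there were 39 of the 57 (68.4%, against 8.43% of all genes), all below 0. DESeq2 called 1 lower (Cdc25b), where it called 0.235% of all genes lower, and limma-voom with a random effect of the mouse called 19, where 1.24% of all genes were lower. The median was -0.423, against -0.002 over all genes, and 56 of 57 values were negative, Pttg1 being the exception. Without both libraries apart on sex-linked genes the median was -0.326 and no gene was called. With the mouse as a block, which compares the cells of one animal with each other, 39 of 57 were called lower and none higher, where 2.05% of all genes were called lower and 1.28% higher (3.33% in either direction). In that fit 53 of the 57 were under an unadjusted p of 0.05 (93%, against 19.5% of all genes). The median was -0.447, against -0.007 over all genes.

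With the block, 10 of 11 genes of mitotic entry were called. The centrosome kinase Nek2 was at -0.66 ± 0.08 (adjusted p = 0.00172) and Cdc25b at -0.73 ± 0.10 (adjusted p = 0.00264). Ube2c was at -0.63 ± 0.11 (adjusted p = 0.00849), Cenpa at -0.60 ± 0.10 (adjusted p = 0.0069) and the microtubule depolymerase Kif2c at -0.62 ± 0.10 (adjusted p = 0.0069). Foxm1 was called (-0.45 ± 0.10, adjusted p = 0.023) and Mybl2 was not (-0.30 ± 0.10, adjusted p = 0.122). Of the genes that pegIFN raised in Jak2V617F cells, Bub3 (-0.15 ± 0.06), Gtse1 (-0.31 ± 0.11) and Pttg1 (0.02 ± 0.12) were not called in this test either. The condensin subunit Ncapd2 (-0.46 ± 0.08, adjusted p = 0.0069) and Mki67 (-0.44 ± 0.09, adjusted p = 0.0204) were called, and Smc2 and Smc4 were not. Leaving out vehicle mouse 44 left 23 calls and leaving out pegIFN mouse 50 left 24, and over all 12 mice left out in turn the count ran from 23 to 47. For these fits the shares of all genes called are not given here.

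**Figure D5:**
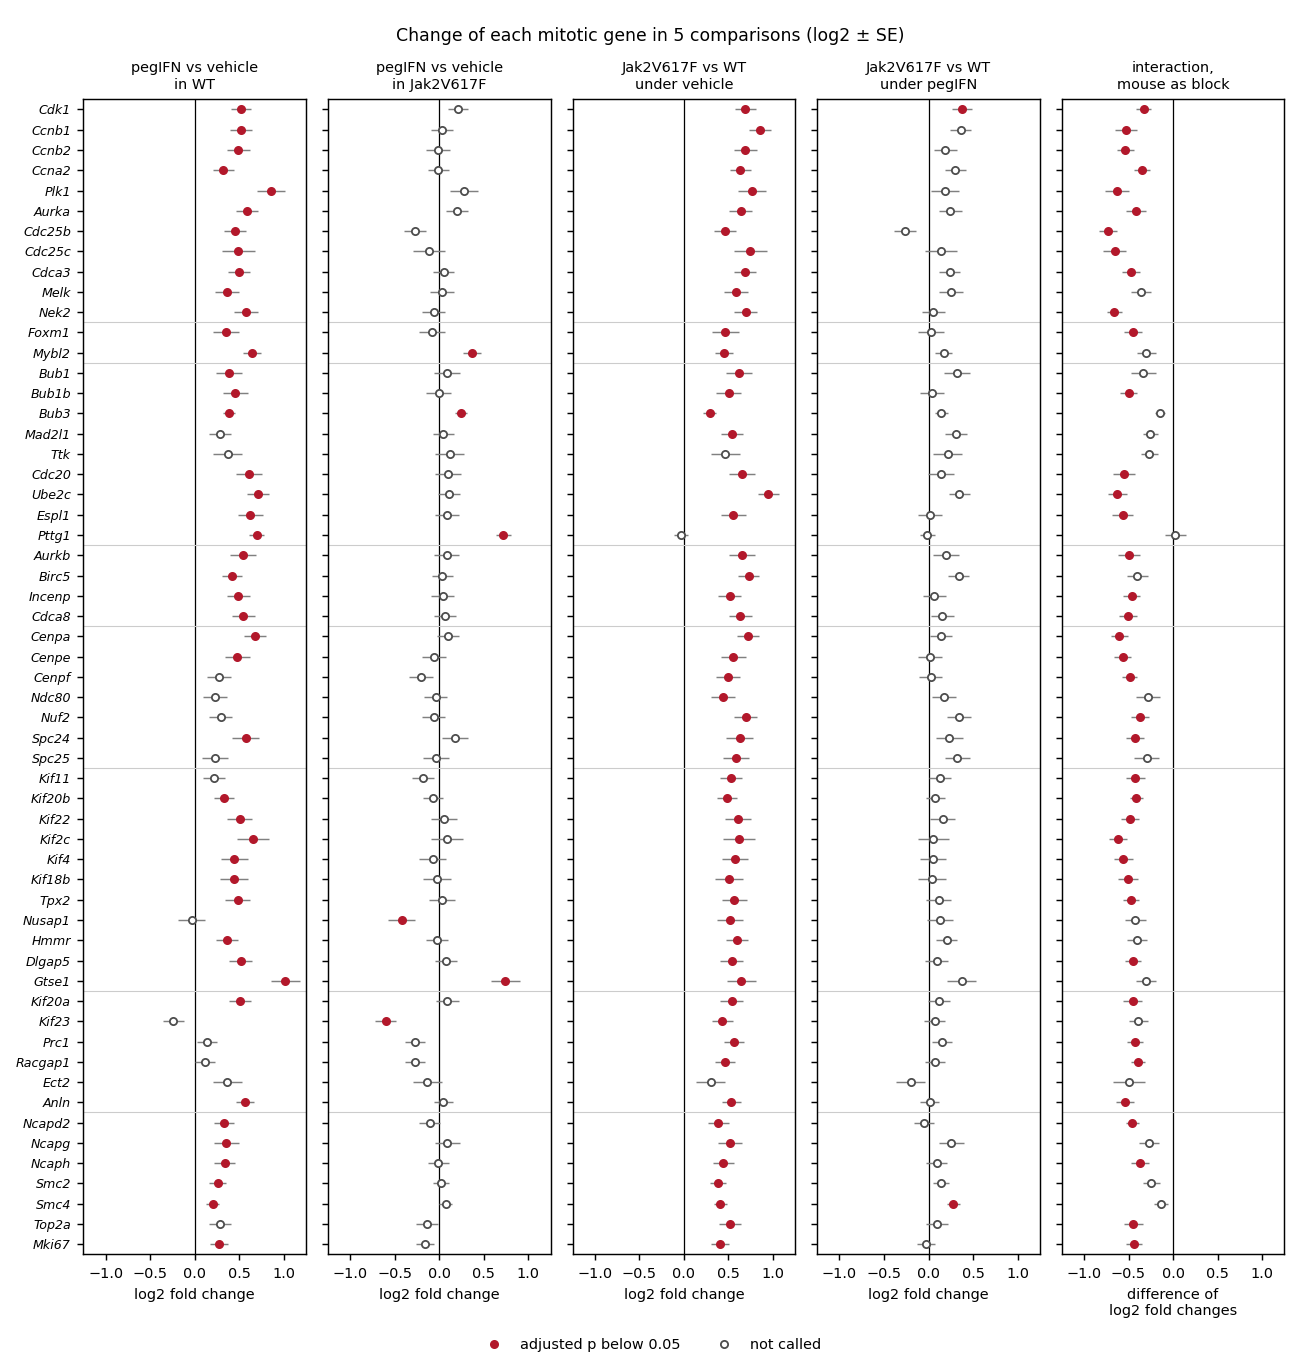
Log2 fold change with its SE (horizontal axes) of each of the 57 genes in the 4 comparisons and, at the right, the interaction with the mouse as a block, with filled points for an adjusted p under 0.05. Filled points fill most of the panels of pegIFN in WT, of Jak2V617F under vehicle and of the interaction, and are 6 in the panel of pegIFN in Jak2V617F and 2 in that of Jak2V617F under pegIFN.

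Other genes of the same pathway were counted from lists written by role. With pegIFN, 21.7% of all genes tested were called higher and 22.3% lower in Jak2V617F cells, and 28.2% and 28.7% in WT cells. Without a block, 8.48% of all genes were higher in Jak2V617F than in WT cells under vehicle and 4.16% under pegIFN. Of 88 other mitotic genes, pegIFN raised 10 and lowered 6 in Jak2V617F cells (median 0.048), and raised 49 and lowered none in WT cells (median 0.220). Under vehicle 48 of them were higher in Jak2V617F than in WT cells (76 with the mouse as a block, where 17.5% of all genes were), and under pegIFN 6 were (30 with the block, where 13.3% of all genes were, and 3 lower). Bora, which activates Aurora A, rose by 0.40 ± 0.06 with pegIFN in WT cells (adjusted p = 3.79e-06), and it was higher by 0.47 ± 0.06 in Jak2V617F vehicle cells (adjusted p = 7.88e-05). Of 36 S phase genes, pegIFN raised 26 in Jak2V617F cells (median 0.304) and 30 in WT cells (median 0.436), among them the replication licensing factor Cdt1 at 0.42 ± 0.08 in Jak2V617F and 0.67 ± 0.08 in WT cells. Under vehicle 9 of the 36 were higher in Jak2V617F cells, and 33 with the mouse as a block. Under pegIFN 2 were higher, and 15 with the block. Without the pair apart on sex-linked genes and without a block, 33 of the 88 and 2 of the 36 were higher in Jak2V617F cells under vehicle, where 701 of all 15944 genes then tested were. With the mouse as a block the interaction was called lower for 39 of the 57 genes, 21 of the 88 other mitotic genes and 2 of the 36 S phase genes, where 2.05% of all genes were called lower.

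In the DREAM and MuvB complex, which holds mitotic genes silent in resting cells and takes part in their later activation, 2 of 11 rose and 2 fell with pegIFN in Jak2V617F cells, and 5 rose and 2 fell in WT cells. These shares stood beside 21.7% of all genes higher and 22.3% lower in Jak2V617F cells, and 28.2% and 28.7% in WT cells. E2f4, its main E2F subunit, rose by 0.52 ± 0.07 in Jak2V617F cells (adjusted p = 1.62e-06) and by 0.62 ± 0.07 in WT cells (adjusted p = 3.86e-08). Rbl2 (p130), the pocket protein of resting cells, fell to 77.8 ± 6.02 CPM in Jak2V617F pegIFN cells, against 90.9 ± 3.51 in Jak2V617F vehicle cells, and to 81.5 ± 2.56 in WT pegIFN cells, against 108 ± 5.23 in WT vehicle cells (SD, n = 6 each). Under vehicle 4 of the 11 genes were higher in Jak2V617F than in WT cells and 1 was lower, where 8.48% of all genes were higher and 4.23% lower. With the mouse as a block 6 were higher and 2 lower, where 17.5% and 13.6% of all genes were. The 1 lower without a block was Rbl2, at -0.25 ± 0.05 (adjusted p = 0.0029). Lin54, Tfdp1, Lin9 and Rbbp4 were the higher ones, from 0.22 to 0.31.

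Markers of cell types were counted over the same comparisons, and their part in the mitotic results was not tested. With pegIFN, 21.7% of all genes tested were called higher and 22.3% lower in Jak2V617F cells, and 28.2% and 28.7% in WT cells. Under vehicle 8.48% of all genes were higher in Jak2V617F than in WT cells and 4.23% lower (17.5% and 13.6% with the mouse as a block). Under pegIFN 4.16% of all genes were higher (13.3% with the block). The summed level of 14 long-term stem cell markers was 2241 to 2905 CPM in Jak2V617F pegIFN, 2824 to 3052 in Jak2V617F vehicle, 2602 to 3042 in WT pegIFN and 3337 to 3978 in WT vehicle libraries. Of these 14, 10 fell and 1 rose with pegIFN in Jak2V617F cells, 10 fell and 2 rose in WT cells, and 4 were lower in Jak2V617F than in WT cells under vehicle (7 with the mouse as a block). Ly6a, the gene of the gate antigen Sca1, rose by 2.31 ± 0.20 in Jak2V617F and 2.00 ± 0.20 in WT cells on the log2 scale. Kit, also a gate antigen, was at -0.87 in each genotype and called lower, and Slamf1 (CD150) was called in neither. Whether pegIFN changed which cells enter the gate was not tested. Cd48, the antigen that the sort gate excludes and 1 of the 7 committed progenitor markers given below, had 33 ± 6.02, 12.4 ± 1.87, 26.3 ± 6.45 and 7.8 ± 2.7 CPM in the same order of the 4 groups. The 12 granulocyte and monocyte markers summed to 951.5 to 1535, 408.5 to 2204, 218.8 to 666.3 and 399.5 to 1071 CPM, and 1 of 12 was higher in Jak2V617F cells under vehicle and 6 under pegIFN (6 and 10 with the mouse as a block). Without the pair apart on sex-linked genes and without a block, none was higher under vehicle and 4 were under pegIFN, where 701 and 238 of all 15944 genes then tested were. Megakaryocyte markers (10) summed to 2385 to 3204, 1405 to 3041, 2037 to 2986 and 1020 to 2730 CPM, 1 rose with pegIFN in Jak2V617F and 5 in WT cells, and 2 were higher in Jak2V617F cells under vehicle (7 with the block). Erythroid markers (13) summed to 861.1 to 1493, 878.5 to 1427, 1297 to 1896 and 921.6 to 1778 CPM, and 5 rose and 4 fell with pegIFN in each genotype. In both genotypes Klf1, Gata1, Epor, Car1 and Ermap rose, by log2 values of 0.88 to 1.88 in Jak2V617F and 1.29 to 3.04 in WT cells. Alas2, Hba-a1, Hbb-b1 and Slc4a1 fell in both, from -2.88 to -4.90 in Jak2V617F and from -3.62 to -5.12 in WT cells. Committed progenitor markers (7) summed to 132 to 245.8, 268.4 to 436.5, 142.8 to 190.5 and 301.3 to 475.7 CPM, and B and T cell markers (11) to no more than 24.25 CPM in any library. Of the 7 committed progenitor markers 6 were tested. With pegIFN 5 fell and 1 rose in Jak2V617F cells, and 4 fell and 1 rose in WT cells. The 1 that rose was Cd48 in both genotypes, while Cd34, Cd27, Flt3 and Satb1 fell in both. No marker of any list was at 0 in all libraries of a group, and 8 to 10 of the 11 B and T cell markers were under 1 CPM. Mitochondrial reads made up 2 to 3.25%, 2.68 to 3.44%, 1.54 to 2.24% and 2.46 to 4.01% in the same order of groups.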

How the data were processed

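Polyadenylated RNA of sorted LT-HSCs was measured in 24 libraries, 6 in each of 4 groups taken from the sample titles. Expected counts per gene were deposited by the authors, and the submitters' processing notes name RSEM 1.2.30, STAR 2.5.2a, cutadapt 1.11 and the build GRCm38. The annotation release and strand setting are not given in the sources used here. RSEM divides reads shared between loci, and 16.8% of values were not whole, so values were rounded. Of the 57 genes, 8 (Ccnb1, Ccna2, Plk1, Cdc20, Kif11, Kif4, Nusap1 and Kif20a) had fractional values in all 24 libraries and are less certain than the 26 with none. Totals were 24.6 to 39.7 M. Libraries within a group differed beyond counting noise, with a chi-square of 6.71 to 67.91 per degree of freedom for each pair.

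Tests used edgeR 4.0.16 in R 4.3.3: filterByExpr with a minimum count of 10 (15879 genes, 99.95% of counts), TMM, 4 group means over all 24 libraries, and robust quasi-likelihood F tests with p-values adjusted by Benjamini-Hochberg over every gene tested. The common biological coefficient of variation came to 18.6%. CPM used TMM-scaled sizes, and log2 CPM a prior count of 2. Exon lengths came from GENCODE M21 and promoters from RefSeq. The fitting was also tested on simulated data.

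Library names carry a number, which was taken as the mouse. Same-numbered libraries of the genotypes correlated at 0.119 to 0.416 after group means were removed, and 11 of 12 pairs were best with their partner, so the mouse was also fitted as a block. Libraries may share donors, so p-values measure the spread between these samples.

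Members, role groups, lists and markers were chosen with earlier results of these data known. All 57 may be named, with values for Cdk1, Ccnb1, Plk1, Aurkb, Foxm1, Mybl2, Cdc20, Ube2c, Bub3, Birc5, Cenpa, Top2a and Mki67, for the smallest p of each role group and comparison, and for calls against the common direction. Other genes are named from the lists, at most 4 by smallest p. Names and values beyond this rule, those of Cd48, Kit, Slamf1 and erythroid markers among them, were picked after they were seen. Alternatives were DESeq2 1.42.0, limma 3.58.1 voom with a random effect of the mouse, RLE and upper-quartile factors, no filter, 1 CPM in 12 libraries, unrounded counts, a fit of the compared groups only, a block for the replicate number, each library left out, and the 2 libraries apart on sex-linked genes or their mice left out. Added after seeing the data were fits without vehicle mouse 44, without vehicle mice 41 and 43, and without each mouse under the block, and the overlap, spread and list counts without the 2 libraries apart on sex-linked genes.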

Additional observations from a re-analysis of the deposited data

Results flagged for a closer look

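In Jak2V617F vehicle cells, replicate 4 lay far below the other 5 libraries for 14 of the 57 genes. The gap to the nearest library, as a share of the range of the group, was 0.723 for Cdk1, 0.631 for Ccna2, 0.685 for Cdca3, 0.672 for Bub1, 0.771 for Bub1b, 0.663 for Bub3 and 0.725 for Ttk. It was 0.652 for Aurkb, 0.736 for Birc5, 0.692 for Ndc80, 0.768 for Nuf2, 0.683 for Spc24, 0.628 for Spc25 and 0.697 for Top2a. The WT library of the same mouse, number 44, was lowest of its group for 53 genes without such a gap. In WT pegIFN cells replicate 6 was far above the others for Spc25 (0.680) and far below them for Ncaph (0.718). In Jak2V617F pegIFN cells replicate 6 was far below the others for Kif20a (0.644). These were 17 of 232 tests, where chance gives about 1 in 20, or 11.6. The genes of a library move together and 14 of the 17 came from 1 library, so the tests are not independent and the counts cannot be weighed against each other.

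With the mouse as a block, the pegIFN change differed between the genotypes for 39 of the 57 genes. The change in Jak2V617F cells minus that in WT cells on the log2 scale was -0.33 for Cdk1, -0.53 for Ccnb1, -0.63 for Plk1, -0.49 for Aurkb, -0.45 for Foxm1 and -0.55 for Cdc20. It was -0.63 for Ube2c, -0.60 for Cenpa, -0.45 for Top2a and -0.44 for Mki67. The adjusted p of Cdk1 rounded to 0.05, at the edge of the threshold.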

How the results depend on the processing

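No called value of the 57 genes changed sign under any setting tried. Shares of all genes are not given in this section. Its counts show how calls move between fits, not how the 57 genes stand against all genes. For pegIFN in WT cells, leaving out each library gave 35 to 53 genes higher, 0 to 1 lower and a median of 0.343 to 0.564. The 1 lower gene was Kif23, also with upper-quartile factors, with 1 CPM in 12 libraries, without the 2 libraries apart on sex-linked genes (32 higher, median 0.342), without both their mice and without mouse 44. Without vehicle mice 41 and 43 the median was 0.671. For pegIFN in Jak2V617F cells, 4 genes were lower with RLE factors, DESeq2, 1 CPM in 12 libraries, limma-voom, a block for the replicate number and without the 2 libraries, 5 with upper-quartile factors or only the groups compared, 7 without both mice and 8 without mouse 44. Leaving out each library gave 1 to 5 lower and 4 higher in each case, and the median ran from -0.030 to 0.063.

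Under vehicle the count of genes higher in Jak2V617F cells was 22 with only the groups compared and 45 to 55 with each library left out. Under pegIFN it was 1 without a filter, 4 with DESeq2, 16 with only the groups compared, 14 with limma-voom (1 lower) and 18 with the mouse as a block (1 lower), and 0 to 3 with each library left out. With the block and each mouse left out it was 10 to 19. For the interaction, 1 gene was lower with DESeq2, 1 (Anln) without mice 41 and 43, 19 with limma-voom and 39 with the mouse as a block, with 23 to 47 when each mouse was left out. The causes of these shifts were not tested. With the mouse as a block under vehicle 55 genes were higher and none lower.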
